A study of Mus musculus with 91 samples.

Results

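Glutathione S-transferases (GSTs) are followed here over the course of a high-fat diet (HFD) in mouse liver and in epididymal (EAT) and mesenteric (MAT) white adipose tissue. The members are Gsta1, Gsta2, Gsta3 and Gsta4 of the alpha class, Gstm1, Gstm2 and Gstm3 of the mu class, Gstp1 of the pi class, and Gstt1 and Gstt2 of the theta class. They were chosen as every probe whose symbol in the array's probe-to-gene table is 1 of these 10 genes, which gave 19 of 45281 probes and 10 of the 19057 genes named on the array. All arrays came from male C57BL/6J mice that were 5 weeks old when feeding began. ND is the AIN-76 semi-purified diet and HFD is a semi-purified diet with added fat and cholesterol, so every diet group ate a purified diet. The paper states that all mice were first given AIN-76 for 1 week of acclimation. The baseline arrays, called before feeding here and below, thus followed 1 week on the ND. Liver was measured on 51 arrays, with 3 before feeding (baseline) and 3 of each diet at each of 8 times (every 2nd week from 2 to 8 weeks, then every 4th week to 24 weeks), when the mice were 7 to 29 weeks old. EAT was measured on 30 arrays, 3 RNA pools of each diet at 2, 4, 8, 20 and 24 weeks, and MAT on 10 arrays, 1 pool for each diet at the same weeks.

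GSTs join glutathione to reactive, electrophilic compounds, which makes them soluble and ready for export from the cell. The cytosolic enzymes work as dimers and are grouped in classes by sequence. Liver is rich in them, as the organ that clears drugs, bile acids and products of lipid peroxidation. Gsta4 encodes the form best known for conjugating 4-hydroxynonenal, an aldehyde made when unsaturated fatty acids are oxidised. Several alpha and mu genes are known targets of NRF2, the transcription factor of the oxidative stress response, and of the nuclear receptors CAR and PXR, which sense drugs and sterols.

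In the GRCm38.p6 assembly Gsta1 (chr9:78230669-78242683), Gsta2 (chr9:78331018-78347192) and Gsta4 (chr9:78191966-78209349) lie close together, while Gsta3 lies at chr1:21240565-21265575. The mu genes are neighbours, with Gstm1 at chr3:108012250-108017973, Gstm2 at chr3:107981702-107986420 and Gstm3 at chr3:107963696-107969174. Gstp1 lies at chr19:4035411-4037912, Gstt1 at chr10:75783813-75798584 and Gstt2 at chr10:75831842-75837419.

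RefSeq promoters of the same assembly (250 bases before to 50 after the gene start) were matched for 8 of the 10 genes, without Gsta4 and Gstt2. The promoters of Gsta1 (chr9:78230419-78230718, plus strand) and Gsta2 (chr9:78347096-78347395, minus strand) are shown because these 2 genes had the largest diet effects in liver. Capitals mark the 3 runs of at least 20 bases that both hold letter for letter.
Gsta1: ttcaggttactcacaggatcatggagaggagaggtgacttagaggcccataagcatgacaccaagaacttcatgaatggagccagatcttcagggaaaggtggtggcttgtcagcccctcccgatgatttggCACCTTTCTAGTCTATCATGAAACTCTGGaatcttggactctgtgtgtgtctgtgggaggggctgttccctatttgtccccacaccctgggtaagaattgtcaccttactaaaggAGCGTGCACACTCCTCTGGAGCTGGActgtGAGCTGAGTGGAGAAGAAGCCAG
Gsta2: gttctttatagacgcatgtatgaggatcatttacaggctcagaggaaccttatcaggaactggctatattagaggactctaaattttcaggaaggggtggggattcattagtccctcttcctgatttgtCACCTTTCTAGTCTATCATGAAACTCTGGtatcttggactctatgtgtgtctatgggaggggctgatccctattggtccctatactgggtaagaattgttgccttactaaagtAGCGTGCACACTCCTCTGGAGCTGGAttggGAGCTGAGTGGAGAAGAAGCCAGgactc
The runs cover 78 bases of the Gsta1 promoter, and the longest has 29 bases. No other pair of member promoters shared a run longer than 14 bases, which was the length for Gstm2 and Gstm3. Gsta1 and Gsta2 transcripts are themselves near-identical, so their probes may share signal and are taken as uncertain for 1 gene against the other.

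The promoter windows were searched on both strands for the core of the antioxidant response element that NRF2 binds, TGACNNNGC, and for the AP-1 motif, TGANTCA. Of the 8 genes, Gsta3 alone held the first and Gstp1 alone the second. Of 32851 promoters of this length, 12.4% held the first and 7.81% the second. A match is a description of the letters and not a bound site. Both genes were lower on the HFD in EAT at 24 weeks, as were Gstm2 and Gstt1, whose promoters held neither motif. The promoters of Gsta3 (chr1:21240335-21240634, plus strand) and Gstp1 (chr19:4037863-4038162, minus strand) are shown with the match in capitals.
Gsta3: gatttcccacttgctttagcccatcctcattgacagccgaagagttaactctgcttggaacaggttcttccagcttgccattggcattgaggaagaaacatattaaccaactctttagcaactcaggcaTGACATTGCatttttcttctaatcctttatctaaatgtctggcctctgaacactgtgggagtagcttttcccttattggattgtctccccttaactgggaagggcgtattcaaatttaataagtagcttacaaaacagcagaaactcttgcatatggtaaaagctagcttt
Gstp1: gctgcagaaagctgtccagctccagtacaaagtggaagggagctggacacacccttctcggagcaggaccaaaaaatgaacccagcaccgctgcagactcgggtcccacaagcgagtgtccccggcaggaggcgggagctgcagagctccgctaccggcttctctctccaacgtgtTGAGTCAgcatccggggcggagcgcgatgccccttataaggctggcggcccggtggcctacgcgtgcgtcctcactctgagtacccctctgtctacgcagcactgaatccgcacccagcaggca

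Defining markers of the labelled tissues were high. The mean level of the hepatocyte genes (8 of 8 measured) was 12.6 to 13.2 on the log2 scale on every liver array, and that of the adipocyte genes (8 of 8 measured) was 12.3 to 13.0 in EAT and 11.3 to 12.5 in MAT. In EAT at 8 weeks Ttr (12.72 to 14.00), Apoa1, Apoc3, Serpina1c and Ahsg also read high on both diets. Alb (6.62 to 6.83), Fgb and Cyp2c29 did not. At 2 weeks Ttr was higher on the HFD by 3.43 (limma adjusted p = 1.87e-05) and Apoa1 by 2.26 (adjusted p = 0.00487), and Alb by 0.05 (adjusted p = 0.6). The part of these genes in the EAT member values was not tested. Replicate liver arrays correlated at 0.972 to 0.997 over all probes, and the array of HFD replicate 1 at 16 weeks stood apart, with a mean correlation of 0.973 with its replicates. All liver values were deposited as quantile normalized log2 values, whose highest was 15.98. In EAT and MAT the share of probes detected above the background, at a detection p under 0.05, was 35.8% to 47.7%. HFD and ND were compared at each week with limma in 1 fit for liver and 1 for EAT, and a probe was called at a Benjamini-Hochberg adjusted p under 0.05 over all probes. Differences are HFD less ND on the log2 scale, with the standard error (SE) and n = 3 arrays for each diet at each week. Nothing in the labels says which liver arrays came from separate mice, so that the p-values measure the spread between these samples, which may be technical.

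In liver Gsta1, Gsta2, Gsta4 and Gstm1 were higher on the HFD than on the ND, and the other members showed no such rise over the whole course. Rises and falls with diet are against the ND here and below, and HFD was not tested against the baseline. The baseline and HFD medians were 10.49 and 10.04 for Gsta4, 9.25 and 9.69 for Gsta2, and 13.425 and 14.14 for Gstm1 ILMN_1228233. For Gsta1 they were 9.53 and 9.70 on ILMN_2657636, 7.64 and 9.57 on ILMN_1231997, and 7.89 and 9.825 on ILMN_2979237. Over the mean of the 8 weeks 6 of the 19 probes rose, against 7.22% of all probes, and 2 fell, against 7.43%. The 6 were the 3 probes of Gsta1 and those of Gsta2, Gsta4 and Gstm1, and the 2 were probes of Gstt2 and Gsta3. Over the 19 probes the median difference was 0.01, beside -0.01 over all probes.

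The count by week is read against the share of all probes. At 2 weeks 5 member probes rose (1.05% of all probes) and 2 fell (0.760%). At 4 weeks 4 rose (1.56%) and 3 fell (1.08%). At 6 weeks 6 rose (3.98%) and 3 fell (3.45%). In these early weeks the falls lay in Gstm2 at each week, with Gsta3 added at 6 weeks. At 8 weeks 6 rose (2.19%) and 0 fell (1.42%). At 12 weeks 5 rose (0.711%) and 0 fell (0.446%). At 16 weeks 9 rose (3.45%) and 3 fell (2.67%). At 20 weeks 9 rose (1.77%) and 0 fell (1.01%). The rises at 16 and 20 weeks took in the 3 Gstm2 probes, which had been low on the HFD earlier. At 24 weeks 6 rose (2.99%) and 0 fell (2.09%).

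Gsta1 encodes an alpha-class subunit that is low in untreated mouse liver and is known to be inducible. Its brightest probe (ILMN_2657636) was at 9.53, 9.66 and 9.49 before feeding. The baseline mean of this probe (9.56) was nearer to that of the Gsta2 probe (9.22) than to those of the other Gsta1 probes (7.70 and 7.89). Over the 24 ND arrays ILMN_2657636 ranged from 7.42 to 9.20 (median 8.01), and over the 24 HFD arrays from 8.37 to 10.74 (median 9.70). At 2 weeks the ND arrays were at 7.92, 7.55 and 8.10 and the HFD arrays at 8.88, 8.52 and 8.93. The HFD arrays lay above the ND arrays at this week and at each of the 8 weeks. At 8 weeks the levels were 8.05, 8.16 and 8.26 on the ND and 10.13, 10.23 and 10.16 on the HFD. At 24 weeks they were 9.20, 7.84 and 7.97 on the ND and 10.61, 10.68 and 10.33 on the HFD, with ND replicate 1 above the other two. The difference was 0.92 ± 0.206 (SE) at 2 weeks (limma adjusted p = 0.00729) and 2.20 ± 0.206 at 24 weeks (adjusted p = 3.56e-10), a 1.89-fold and a 4.60-fold higher level. It passed at all 8 weeks and its mean was 1.62 ± 0.0729 (adjusted p = 5.95e-21).

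The size of the Gsta1 difference was not the same at every week. For this probe it was 0.96 at 4 weeks, 1.18 at 6, 2.02 at 8, 1.69 at 12, 1.90 at 16 and 2.10 at 20 weeks. The diet-by-week interaction passed for it (adjusted p = 0.00318) and for ILMN_1231997 (adjusted p = 0.0154), and not for ILMN_2979237 (adjusted p = 0.080). At 2 weeks the call of ILMN_2657636 was lost without ND replicate 2 (0.77, adjusted p = 0.0965), HFD replicate 1 (0.87, adjusted p = 0.0517) or HFD replicate 3 (0.84, adjusted p = 0.0663). The other 2 probes gave larger mean differences, 2.28 ± 0.123 and 2.33 ± 0.135, and were also higher on every HFD array than on every ND array at each week. At 4 weeks HFD replicate 2 was the highest of the HFD arrays on all 3 probes, and without it the difference of ILMN_2657636 was 0.69 (adjusted p = 0.13) and that of ILMN_2979237 was 0.73 (adjusted p = 0.592). ND replicate 1 at 24 weeks read 10.45 on ILMN_1231997, where the other 2 ND arrays read 7.96 and 8.15.

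Gsta2, the neighbouring alpha gene, showed the same order of the diets at each week. It was at 9.29, 9.25 and 9.12 before feeding, from 7.45 to 8.95 (median 7.93) on the ND arrays and from 8.29 to 10.88 (median 9.69) on the HFD arrays. At 20 weeks, where its difference was greatest, the ND arrays were at 7.94, 8.48 and 8.13 and the HFD arrays at 10.66, 10.88 and 10.74. The groups did not overlap at any week. The difference was 0.99 ± 0.198 at 2 weeks (adjusted p = 0.00236) and 2.58 ± 0.198 at 20 weeks (adjusted p = 3.68e-12), and the mean was 1.81 ± 0.0702 (adjusted p = 4.24e-23). Its interaction passed as well (adjusted p = 0.00131).

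Gsta4 was higher on the HFD by a smaller amount. Its ND arrays ranged from 8.59 to 10.84 (median 9.34) and its HFD arrays from 9.22 to 11.64 (median 10.04). At 8 weeks the levels were 8.59, 9.17 and 9.27 on the ND and 9.82, 10.06 and 10.03 on the HFD, a difference of 0.96 ± 0.188 (adjusted p = 0.000781). The groups were apart at 7 of the 8 weeks and overlapped at 16 weeks, where HFD replicate 1 read 9.42 beside 10.47 and 10.61. Gsta4 passed at 6 weeks of the 8, and its calls at 8 and 24 weeks held without any 1 array. The calls at 4, 6 and 16 weeks were each lost without any 1 of 4 arrays (adjusted p = 0.0612 to 0.205 at 4 weeks, 0.0885 to 0.11 at 6 and 0.096 to 0.213 at 16), namely ND replicates 1 and 3 and HFD replicates 2 and 3 at 4 and 16 weeks, and ND replicates 2 and 3 and HFD replicates 1 and 3 at 6 weeks. The call at 20 weeks was lost without ND replicate 1 (adjusted p = 0.0713). At 2 weeks the difference was 0.61 (adjusted p = 0.0909) and at 12 weeks 0.65 (adjusted p = 0.0851). The mean was 0.73 ± 0.0665 (adjusted p = 9.37e-12), and the weekly differences lay between 0.61 and 0.96.

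Gsta3, which encodes a form abundant in mouse liver and known for its activity towards aflatoxin epoxide, showed no diet difference on its brighter probe. ILMN_1241437 ranged from 14.61 to 15.42 (median 15.11) on the ND arrays and from 14.46 to 15.40 (median 15.18) on the HFD arrays, close to the top of the scale. The mean difference was -0.02 ± 0.0247 (adjusted p = 0.717). The second probe, ILMN_3138685, ranged from 9.34 to 10.75 on the ND and from 8.84 to 10.43 on the HFD, and fell by 0.15 ± 0.0456 (adjusted p = 0.0148). Of the 8 weeks it passed at 6 weeks, where the ND arrays were at 9.86, 9.34 and 9.35 and the HFD arrays at 9.19, 8.96 and 8.84, and not without ND replicate 1 (adjusted p = 0.151) or HFD replicate 3 (adjusted p = 0.0662). The mean call was lost without the arrays of replicate number 2 (adjusted p = 0.214) or of number 3 (adjusted p = 0.0946).

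**Figure D1:**
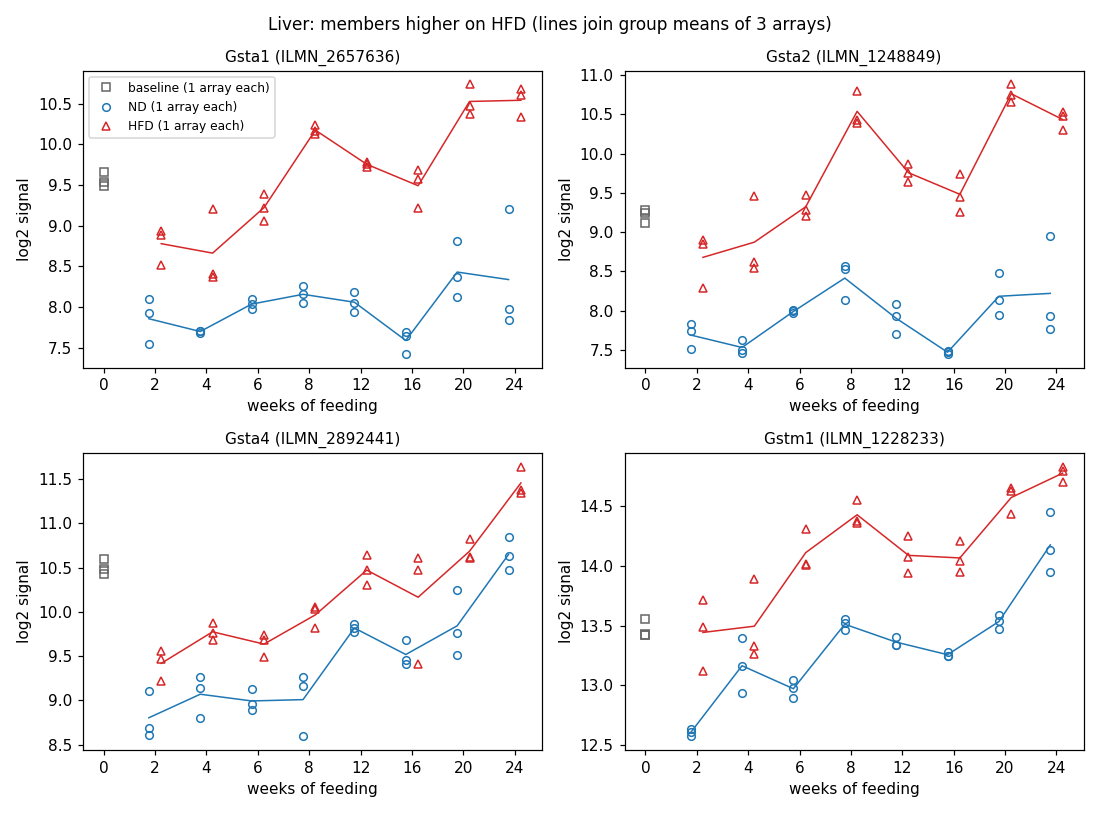
Log2 level (y axis, own scale in each panel) against weeks of feeding (x axis) in liver for Gsta1, Gsta2, Gsta4 and Gstm1, 1 point for each array, with lines through the means of the ND and of the HFD groups and the 3 baseline arrays at week 0. The HFD points of Gsta1 and Gsta2 lie above the ND points at all 8 weeks, and ND levels of both are below the baseline at 2 weeks.

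Gstm1, a mu-class subunit that is common in liver, rose on the probe ILMN_1228233. It ranged from 12.57 to 14.45 (median 13.34) on the ND arrays and from 13.12 to 14.83 (median 14.14) on the HFD arrays. At 6 weeks the levels were 13.04, 12.98 and 12.90 on the ND and 14.31, 14.01 and 14.02 on the HFD, a difference of 1.14 ± 0.125 (adjusted p = 2.46e-08). The groups were apart at 7 weeks of the 8, and these 7 passed. At 4 weeks they overlapped, with a difference of 0.33 (adjusted p = 0.213). The mean was 0.80 ± 0.0441 (adjusted p = 3.29e-18), or 1.74-fold, and the interaction passed (adjusted p = 0.0358). The second probe, ILMN_2626491, lay between 6.91 and 7.63 on all arrays of both diets and its mean difference was 0.08 (adjusted p = 0.115).

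Gstm2, the next mu gene, was lower on the HFD in the first weeks and higher later. At 4 weeks its brightest probe (ILMN_2624854) was at 12.83, 12.88 and 12.55 on the ND and at 12.16, 12.25 and 11.80 on the HFD. At 20 weeks it was at 12.70, 12.67 and 12.81 on the ND and at 13.48, 13.43 and 13.58 on the HFD. The groups were apart at both weeks, in opposite directions. It fell by 0.53 at 2 weeks (adjusted p = 0.00816), 0.68 ± 0.12 at 4 weeks (adjusted p = 0.000272) and 0.51 at 6 weeks (adjusted p = 0.00374). The call at 2 weeks was lost without ND replicate 3 (adjusted p = 0.0559) or HFD replicate 2 (adjusted p = 0.0784), and that at 6 weeks without HFD replicate 2 (adjusted p = 0.0799). At 8 and 12 weeks the differences were -0.05 and -0.17, with overlapping groups. It rose by 0.75 ± 0.12 at 16 weeks (adjusted p = 3.79e-05) and by 0.77 at 20 weeks (adjusted p = 4.08e-05), and at 24 weeks the difference was 0.09 (adjusted p = 0.856). The interaction had an adjusted p of 3.47e-08 for this probe and of 3.82e-08 and 6.84e-07 for the other two, so that a mean of -0.04 over the weeks stands for differences of both signs. In all, 9 of the 19 member probes passed the interaction, against 5.37% of all probes, and besides those named these were Gsta3 ILMN_3138685 (adjusted p = 0.0453) and Gstm3 (adjusted p = 0.0304). Gstm3 itself lay between 6.64 and 7.15 on every array fed either diet, near the lower end of the scale, and passed at no week.

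Gstp1, the pi-class gene, read close to the top of the scale on its brightest probe. ILMN_2677046 ranged from 15.09 to 15.87 (median 15.63) on the ND arrays and from 13.78 to 15.95 (median 15.58) on the HFD arrays, with a mean difference of -0.05 ± 0.0719 (adjusted p = 0.758). At 16 weeks the levels were 15.48, 15.64 and 15.64 on the ND and 13.78, 15.38 and 15.18 on the HFD, where HFD replicate 1 was far below the other two. The difference there was -0.81 ± 0.203 (adjusted p = 0.00944), and without that array -0.31 (adjusted p = 0.386). ILMN_1223230 gave -0.98 (adjusted p = 0.0091) and without it -0.35 (adjusted p = 0.376). The third probe, ILMN_2793329, was lower, from 7.09 to 9.52 on the ND and from 6.98 to 9.55 on the HFD, with a mean difference of 0.05 (adjusted p = 0.613). Gstp1 and its neighbour Gstp2 are near-identical, so these probes may take signal from both.

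Of the theta genes, Gstt2 was lower on the HFD and Gstt1 did not pass at any week. Gstt2 ILMN_2689880 ranged from 10.72 to 11.90 (median 11.16) on the ND arrays and from 10.06 to 11.61 (median 10.90) on the HFD arrays. Its mean difference was -0.29 ± 0.0475 (adjusted p = 8.50e-06), with weekly values from -0.47 to -0.04. Of single weeks it passed at 16 weeks (-0.47, adjusted p = 0.0243), and not without HFD replicate 1 (-0.23, adjusted p = 0.479), ND replicate 2 (adjusted p = 0.124) or ND replicate 3 (adjusted p = 0.0599). The other Gstt2 probe, ILMN_2554549, had a mean difference of -0.24 ± 0.123 (adjusted p = 0.247). Gstt1 ranged from 11.93 to 12.83 on the ND and from 11.73 to 12.97 on the HFD, with a mean difference of -0.07 ± 0.0426 (adjusted p = 0.399).

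**Figure D2:**
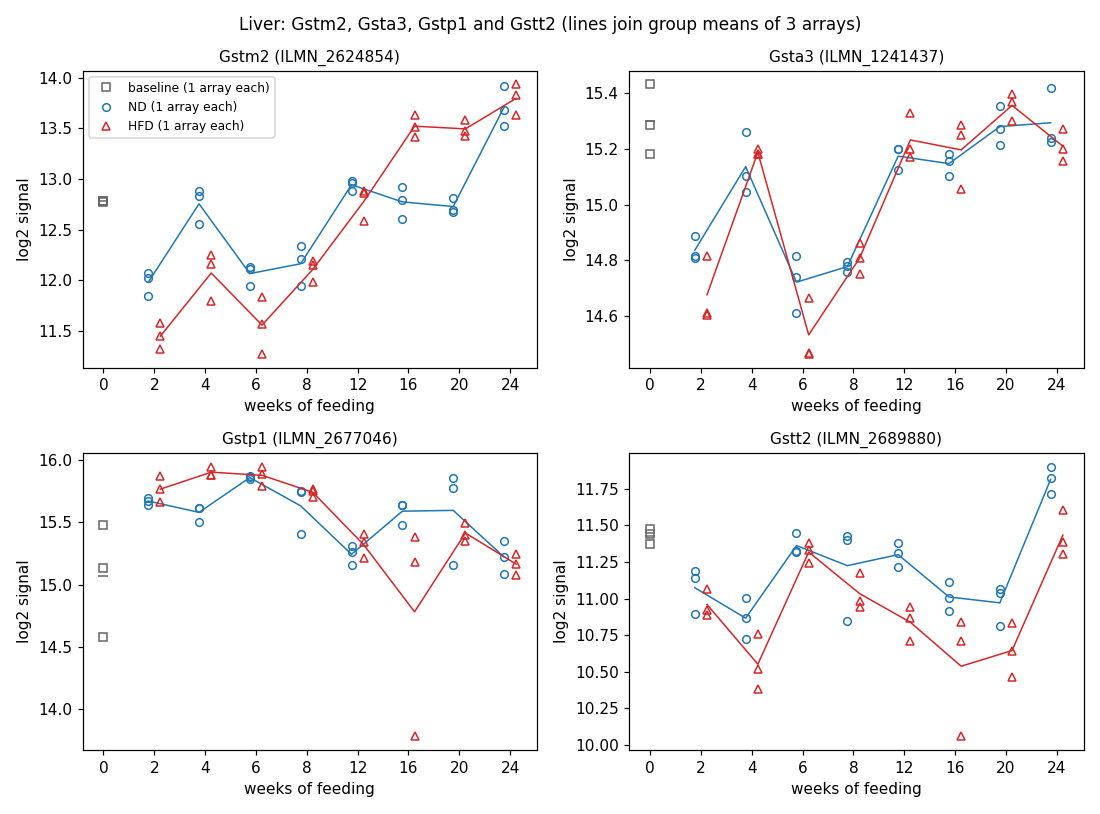
Log2 level (y axis, own scale in each panel) against weeks of feeding (x axis) in liver for Gstm2, Gsta3, Gstp1 and Gstt2, 1 point for each array and lines through the diet means. The HFD points of Gstm2 lie below the ND points at 2, 4 and 6 weeks and above them at 16 and 20 weeks, and 1 HFD array at 16 weeks is low for Gstp1.

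**Figure D3:**
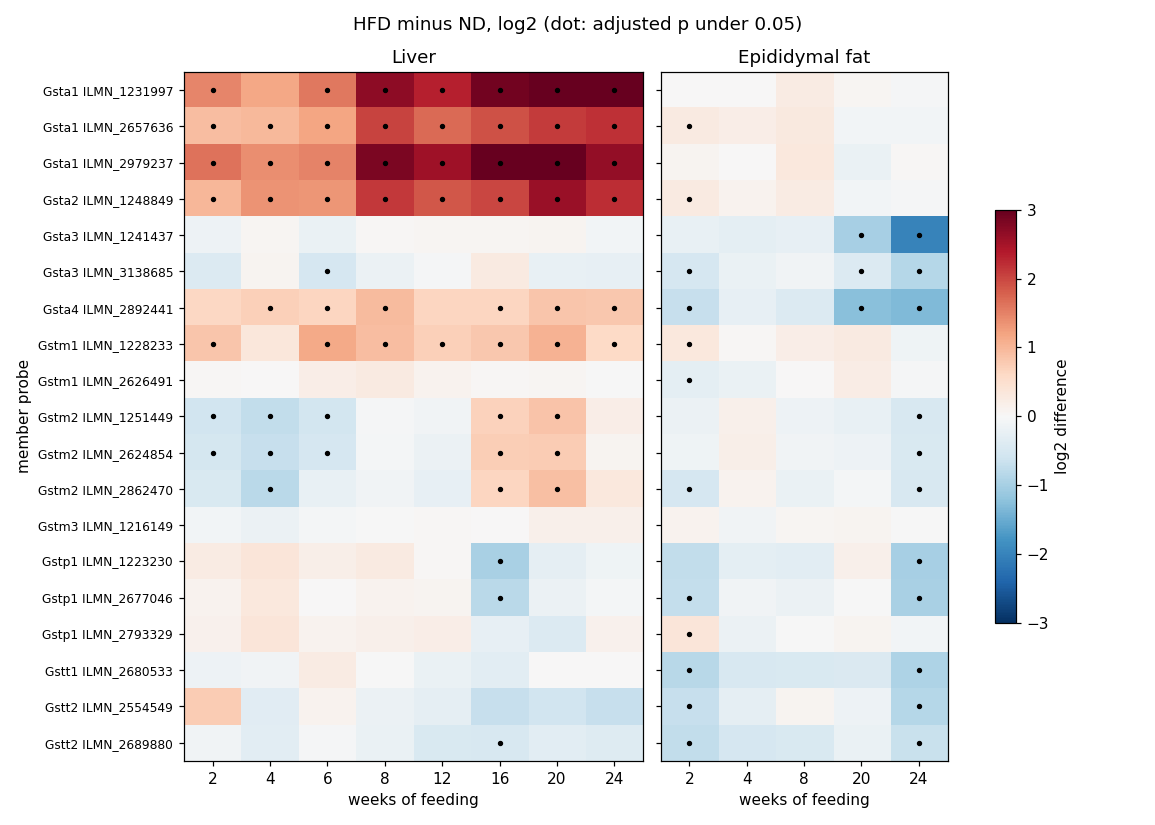
Heat map of the HFD less ND difference (log2, red above and blue below 0) for each of the 19 member probes (rows) at each week (columns) in liver and in EAT, with a dot where the adjusted p was under 0.05. The Gsta1 and Gsta2 probes are above 0 at every liver week, and in EAT 11 probes carry a dot at 24 weeks, all of them below 0.

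All 19 member probes changed over the ND course (F-test over baseline and the 8 ND weeks), which 41.8% of all probes did too. Gsta1 (ILMN_2657636) fell by 1.70 ± 0.206 between the baseline and 2 weeks of ND (adjusted p = 2.32e-07), Gsta2 fell by 1.53 ± 0.198 (adjusted p = 9.46e-07) and Gsta4 fell by 1.70 ± 0.188 (adjusted p = 3.58e-08). The other Gsta1 probes did not pass at 2 weeks (-0.89, adjusted p = 0.138 for ILMN_1231997 and -1.14, adjusted p = 0.0713 for ILMN_2979237). Gsta1 ILMN_2657636 (-1.22, adjusted p = 2.05e-05) and Gsta2 (adjusted p = 0.000244) were still below the baseline at 24 weeks. The other Gsta1 probes were above it there, ILMN_1231997 by 1.15 (adjusted p = 0.0174) and ILMN_2979237 by 0.98 (adjusted p = 0.0787), with ND replicate 1 the highest of the 3 ND arrays. Gsta4 was by then back near it (0.15, adjusted p = 0.701). Gstm1 fell by 0.86 at 2 weeks and at 24 weeks was 0.71 ± 0.125 above the baseline (adjusted p = 4.05e-05), and Gstm2 fell by 0.80 at 2 weeks and was 0.93 ± 0.12 above it at 24 weeks (adjusted p = 1.58e-07). Of the variance over all probes 25.0% lay on the first principal component, on which the arrays lay from -40.0 to -32.9 at 24 weeks, from 17.9 to 21.8 at 6 weeks and from 29.2 to 37.6 at 8 weeks. The ranges of the baseline and of 12, 16 and 20 weeks overlapped, and the diets lay apart at 8, 16, 20 and 24 weeks. Age, time on the purified diet and the set in which arrays were run cannot be told apart in this course.

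Macrophage genes moved in the same liver arrays, where 7.22% of all probes rose over the 8 weeks. All 9 measured of 10 macrophage genes rose over the 8 weeks (median 0.69), and their mean level was 8.30 to 9.15 on ND and 8.80 to 10.21 on HFD arrays. Their summed level was 11.8 to 12.8 on ND and 12.7 to 14.2 on HFD arrays. Their part in the GST differences was not tested. In RNA of a whole tissue, fewer cells of a type and less RNA per cell cannot be told apart.

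Other genes around the family moved both ways in liver, where 7.22% of all probes rose and 7.43% fell over the 8 weeks. Of 14 other glutathione transferases 3 rose over the 8 weeks (Gstp2 by 0.46, Mgst3 by 0.25 and Hpgds, a prostaglandin D synthase, by 0.11) and 3 fell (Gstm7 by 0.36, Gstm5 by 0.23 and Gstt3 by 0.20), with a median of 0.03 beside -0.005 over all genes. Of the 8 measured genes of glutathione synthesis and recycling, 3 rose, among them Gclm, the modifier subunit of the rate-limiting ligase, by 0.22 and Gss, glutathione synthetase, by 0.23. Of 12 NRF2-responsive genes outside the family 8 rose and 0 fell (median 0.27), led by Ephx1, the microsomal epoxide hydrolase, by 0.67 and Hmox1, heme oxygenase, by 0.52, while Nqo1, a quinone reductase, rose by 0.35. Of 8 measured genes known to respond to CAR and PXR 7 rose (median 0.63), with Cyp3a11 by 1.20 and Cyp2b10 by 1.09, and Nr1i2, which encodes PXR itself, fell by 0.18. Of 5 transporters that export conjugates, Abcc3 rose by 0.88 and Abcc4 by 0.25. These lists share genes, since Gclm and Abcc4 are also among the 8 NRF2-responsive genes that rose.

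The member probe with the largest mean difference was Gsta1 ILMN_2979237. Over the 51 liver arrays the genes outside the family that were most like it were Anxa2 (Pearson r = 0.914), Gas7 (0.913), Slc13a3 (0.904), Tmem43 (0.893) and Tmem45b (0.890). These points share diet groups and weeks. Within the 24 ND arrays the same values were 0.546 to 0.735, and within the 24 HFD arrays 0.846 to 0.895.

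In EAT Gsta3, Gsta4, Gstm2, Gstp1 and both theta genes fell on the HFD at 24 weeks. There 11 of the 19 probes fell, against 4.51% of all probes, and 0 rose, against 5.99%. By the brightest probe of each gene 6 of the 10 members passed, and of the other 4, Gsta1, Gsta2 and Gstm3 were not above the background. At 20 weeks 3 probes fell (3.54% of all probes) and 0 rose (3.85%). At 8 weeks 0 rose (0.517%) and 0 fell (0.192%), and at 4 weeks 0 rose (0.272%) and 0 fell (0.139%). At a limma p under 0.05 without adjustment there were 7 probes at 8 weeks (5 of them higher on the HFD), against 9.61% of all probes, and 4 probes at 4 weeks (2 of them higher), against 9.19%. Of the 5 higher at 8 weeks 4 were the Gsta1 and Gsta2 probes, which were not above the background on most arrays. At 2 weeks 4 rose (14.5%) and 8 fell (21.7%).

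Among the member probes Gsta3 had the largest difference in EAT. At 20 weeks ILMN_1241437 was at 12.81, 13.12 and 13.05 on the ND and at 11.91, 12.20 and 11.85 on the HFD. At 24 weeks the levels were 13.11, 13.19 and 13.38 on the ND and 11.64, 10.65 and 11.37 on the HFD. The groups were apart at both weeks. It fell by 1.01 ± 0.169 at 20 weeks (adjusted p = 0.000254) and by 2.00 ± 0.169 at 24 weeks (adjusted p = 5.91e-09), which is 4.01-fold lower. At 4 and 8 weeks the differences were -0.30 (adjusted p = 0.644) and -0.25 (adjusted p = 0.717). The second probe fell by 0.42 at 20 weeks (adjusted p = 0.0113) and by 0.85 at 24 weeks (adjusted p = 2.31e-06). Its 20-week call was lost without ND pool 2 (adjusted p = 0.0669) or HFD pool 3 (adjusted p = 0.0785).

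Gsta4, which rose in liver, fell in EAT at the same late weeks. At 20 weeks it was at 8.58, 9.62 and 9.01 on the ND and at 7.64, 7.86 and 7.95 on the HFD. At 24 weeks it was at 9.82, 9.70 and 9.68 on the ND and at 8.47, 8.48 and 8.26 on the HFD. It fell by 1.26 ± 0.202 (adjusted p = 0.000155) and by 1.33 ± 0.202 (adjusted p = 4.45e-05). The diet-by-week interaction passed for Gsta4 (adjusted p = 0.0101) and for both Gsta3 probes (adjusted p = 5.31e-06 and 0.0028). It passed for 8 of the 19 member probes, against 29.0% of all probes, and for 5 of them without the 2-week arrays (both Gsta3 probes, Gsta4, and Gstm2 ILMN_1251449 and ILMN_2624854).

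Gstm2, Gstp1, Gstt1 and Gstt2 changed by less in EAT. Gstm2 ILMN_2624854 at 24 weeks was at 14.27, 14.21 and 14.42 on the ND and at 13.84, 13.72 and 13.93 on the HFD, and fell by 0.47 ± 0.0715 (adjusted p = 5.07e-05). The other Gstm2 probes fell by 0.49 (ILMN_1251449, adjusted p = 0.000622) and by 0.48 (ILMN_2862470, adjusted p = 0.0476), the second not called without any 1 of the 3 ND pools (adjusted p = 0.0795 to 0.129) or HFD pool 2 (-0.29, adjusted p = 0.31). Under median scaling the 3 Gstm2 probes no longer passed (adjusted p = 0.058 to 0.121). Gstp1 ILMN_2677046 was at 13.09, 13.01 and 13.00 on the ND and at 12.66, 11.19 and 12.36 on the HFD, a difference of -0.96 ± 0.266 (adjusted p = 0.0187). HFD pool 2 was the lowest, and without it the difference was -0.52 (adjusted p = 0.177), while without 1 of the ND pools the adjusted p was 0.0506 to 0.0617. Gstp1 ILMN_1223230 fell by 0.98 (adjusted p = 0.0324), and the call was lost without HFD pool 2 (-0.56, adjusted p = 0.265), ND pool 1 (adjusted p = 0.142) or ND pool 2 (adjusted p = 0.0687). Gstt1 was at 11.26, 11.18 and 11.21 on the ND and at 10.70, 9.78 and 10.42 on the HFD, and fell by 0.92 ± 0.17 (adjusted p = 0.000513), or by 0.66 without HFD pool 2 (adjusted p = 0.00509). Gstt2 ILMN_2689880 was at 10.31, 10.48 and 10.44 on the ND and at 10.05, 9.34 and 9.86 on the HFD, a difference of -0.66 ± 0.186 (adjusted p = 0.0211), and without HFD pool 2 of -0.46 (adjusted p = 0.164). This call was lost as well without ND pool 2 (adjusted p = 0.0767) or ND pool 3 (adjusted p = 0.0689). Gstt2 ILMN_2554549 was at 9.78, 9.90 and 9.86 on the ND and at 8.96, 8.47 and 9.57 on the HFD, and fell by 0.84 (adjusted p = 0.00394). Fitted on the 6 arrays of 24 weeks alone, no Gstp1 or theta probe passed (adjusted p = 0.0524 to 0.18), while both Gsta3 probes, Gsta4 and 2 Gstm2 probes did.

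Gstm1 was not among the members that passed at 24 weeks in EAT. There ILMN_1228233 was at 13.39, 13.49 and 13.38 on the ND and at 13.36, 13.09 and 13.43 on the HFD, with overlapping groups and a difference of -0.13 ± 0.0878 (adjusted p = 0.453). Gsta1 and Gsta2, the members with the largest liver differences, were not above the background on most EAT arrays. Gsta1 was detected on 0 to 2 of the 30 arrays by its 3 probes and Gsta2 on 5, and Gstm3 on 0, so that no fold is given for them.

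**Figure D4:**
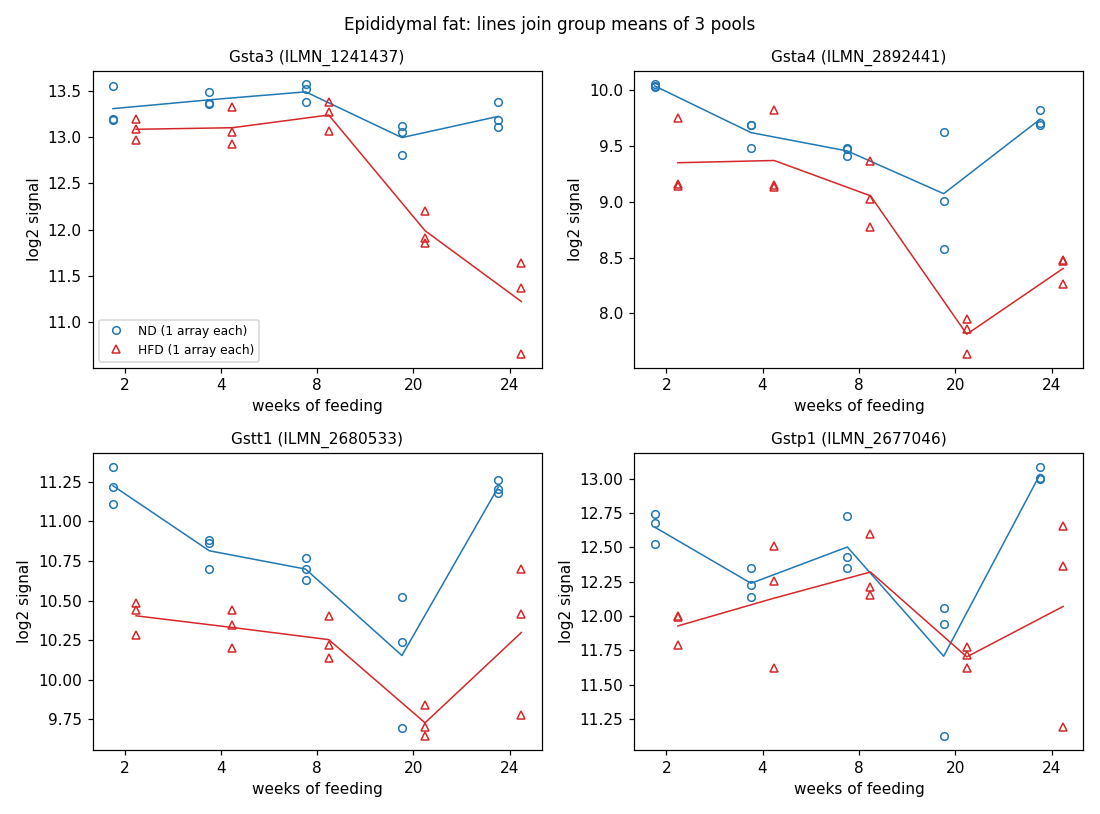
Log2 level (y axis, own scale in each panel) against weeks of feeding (x axis) in EAT for Gsta3, Gsta4, Gstt1 and Gstp1, 1 point for each RNA pool and lines through the diet means. The HFD points of Gsta3 and Gsta4 lie below the ND points at 20 and 24 weeks, and 1 HFD pool at 24 weeks is low for Gstp1 and Gstt1.

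Macrophage, adipocyte and mesothelial genes moved in the same EAT arrays. All 9 measured of 10 macrophage genes rose at 20 weeks (median 1.28) and at 24 weeks (median 1.21), and their mean level at 24 weeks was 10.04 to 10.15 on the ND and 11.48 to 11.63 on the HFD. Their summed level at 24 weeks was 14.6 to 14.7 on the ND and 16.1 to 16.2 on the HFD. Of 8 adipocyte genes 2 fell at 20 weeks (median -0.36) and 4 at 24 weeks (median -0.40), with a mean level at 24 weeks of 12.8 to 13.0 on the ND and 12.3 to 12.6 on the HFD and a summed level of 17.2 to 17.4 and 17.0 to 17.3. Of 7 measured of 8 mesothelial genes 7 were lower at 20 weeks (median -0.75) and 3 fell, the keratins Krt8 (-2.47), Krt18 (-1.52) and Krt19 (-1.03), while 0 passed at 24 weeks. Their mean level at 20 weeks was 8.02 to 8.55 on the ND and 6.90 to 7.72 on the HFD, and their summed level 11.2 to 12.0 and 9.74 to 10.8. The part of these lists in the lower GST levels was not tested.

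The difference at 2 weeks in EAT came with a difference in background between the arrays. The 5th percentile of intensity was 118 to 120 on the 3 ND arrays and 89.9 to 92.1 on the 3 HFD arrays, while at 24 weeks both diets had high values (109.9 to 121). Between the ND arrays of 20 weeks (79.1 to 80.2) and of 24 weeks (116 to 121) some members differed by a like amount. For Gsta4 the HFD less ND difference at 2 weeks was -0.69 and the difference of ND at 20 weeks less ND at 24 weeks was -0.66. For Gstt1 the 2 values were -0.82 and -1.06, and for Gstt2 ILMN_2554549 they were -0.70 and -0.09. Less this second difference, 1 of the 19 probes was called at 2 weeks, against 5.09% of all probes. It was Gstm2 ILMN_2624854 (0.35, adjusted p = 0.0433), which was at -0.14 and not called before. The subtraction also takes in age and the set of arrays, and it raises the SE (for Gsta4 from 0.202 to 0.285). A call can thus be lost by the larger SE alone, and the cause was not tested. Epididymal epithelium genes (9 of 11 measured) were at a mean of 7.31 to 8.82 on the ND and 7.26 to 12.9 on the HFD at 4 weeks, and of 6.99 to 7.03 and 7.65 to 8.40 at 2 weeks. Their part in the member values was not tested.

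The lists around the family in EAT at 24 weeks moved both ways, where 5.99% of all probes rose and 4.51% fell. Of 14 other glutathione transferases 6 fell, led by Gstm5 by 1.30, with Mgst3 by 0.81 and Mgst1, a microsomal form, by 0.66, and Hpgds, which is known from macrophages and mast cells, rose by 2.30. Their median was -0.60. Of 12 NRF2-responsive genes 3 rose, Hmox1 by 1.54, Srxn1 (sulfiredoxin) by 0.94 and Ephx1 by 0.39, and 0 fell. Of 8 genes of glutathione synthesis and recycling Gpx3, a secreted glutathione peroxidase, fell by 0.91 and no other passed. Of 8 genes that respond to CAR and PXR, Cyp2b10 fell by 0.42 and no other passed, and of 5 conjugate transporters 0 passed.

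In MAT there is 1 pool for each diet and week, so that a week has no replicate check and the weeks together were tested with limma as 5 pairs. Of the 19 member probes 0 passed, as did 0% of all probes. At an unadjusted p under 0.05 there were 2 member probes and 2685 of all probes. Gsta4 was at 9.46, 8.57, 9.04, 9.74 and 9.78 on the ND at 2, 4, 8, 20 and 24 weeks and at 9.05, 8.31, 8.85, 8.79 and 8.94 on the HFD. It was lower on the HFD at 5 of 5 weeks, with a mean of -0.53 ± 0.127 (limma adjusted p = 0.812). Gstp1 ILMN_1223230 was also lower at 5 of 5 weeks (-0.30 ± 0.071, limma adjusted p = 0.812), and these were the 2 probes under an unadjusted 0.05. The 2-week pair, counted for both, had a 5th percentile of intensity of 108 on the ND and 81.3 on the HFD. The part of this background in the 2-week values was not tested. Gsta3 was at 12.85 on the ND and 11.62 on the HFD at 24 weeks, and at 12.90 and 12.84 at 20 weeks.

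Gsta1 and Gsta2 varied widely between the MAT pools, without 1 direction. Gsta1 (ILMN_2979237) was at 6.63, 6.57, 8.73, 11.56 and 6.89 on the ND at the 5 weeks in order, and at 10.22, 7.15, 6.70, 9.21 and 9.53 on the HFD. The ND pools of 2, 4 and 24 weeks and the HFD pool of 8 weeks were not well above background. On the normalized scale the HFD was thus at least 8.09-fold higher at 2 weeks and at least 5.38-fold higher at 24 weeks. At 8 weeks it was at least 3.19-fold lower. At 20 weeks both were detected and the HFD was 5.11-fold lower. Such a bound sets the measured pool against the lowest signal detected on the other array. The 2-week bound is uncertain, since the array backgrounds of that pair differed (108 on the ND and 81.3 on the HFD). Before normalization the 2-week intensities of this probe were 115 on the ND and 570 on the HFD. Gsta2 was at 6.85, 6.69, 8.08, 10.73 and 6.81 on the ND and at 9.31, 7.16, 6.82, 8.09 and 7.57 on the HFD, with the same diet higher at each week as for Gsta1.

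Genes of the intestinal epithelium moved in the same MAT pools. The mean level of these 10 genes, 10 of 10 measured, was 8.43, 7.20, 10.67, 11.83 and 8.26 on the ND and 9.05, 10.13, 7.04, 10.90 and 10.78 on the HFD at the 5 weeks in order, and their summed level was 11.0 to 16.3 on the ND and 11.0 to 15.8 on the HFD. At each week the diet with the higher list level was also the diet with the higher Gsta1 and Gsta2 levels. The ND pool with the highest list level (11.83) also had the highest level of Gsta1 and of Gsta2. The sizes did not always go together, since at 4 weeks the HFD pool had a high list level (10.13) and a Gsta1 level of 7.15. Genes of the exocrine pancreas (6 of 8 measured) were at a mean of 14.80, 12.45, 10.45, 7.46 and 7.49 on the ND and 14.88, 12.41, 8.81, 7.52 and 7.29 on the HFD, and at 8 weeks all 6 were lower on the HFD (median -1.65). Genes of skeletal muscle (8 of 8 measured) were at a mean of 12.05 in the ND pool of 2 weeks and of 7.20 to 7.57 in the other 9 pools. The part of these lists in the member values was not tested.

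**Figure D5:**
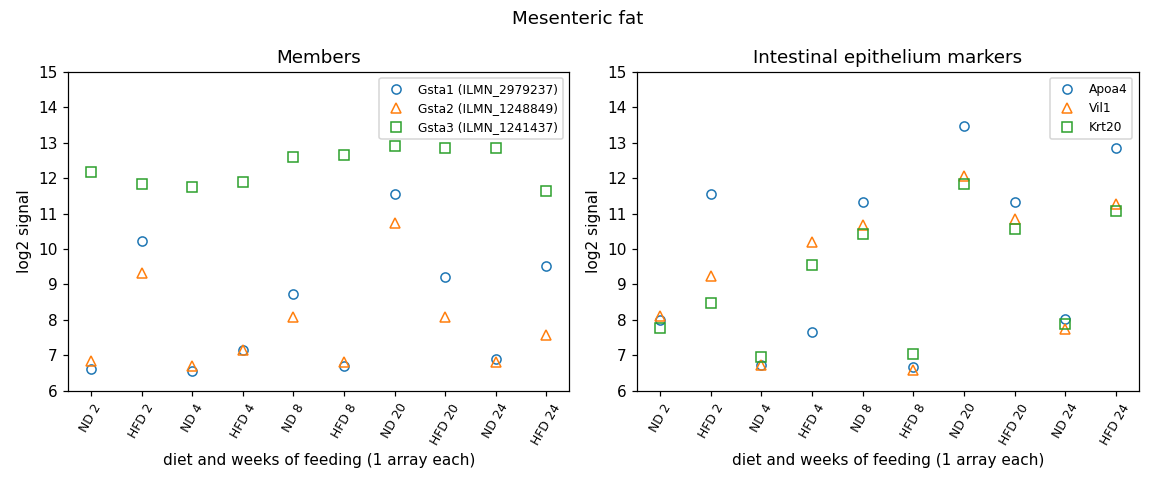
Log2 level (y axis) in MAT for each diet and week (x axis, 1 array each, no replicate), of Gsta1, Gsta2 and Gsta3 on the left and of 3 intestinal epithelium genes on the right. Gsta1 and Gsta2 swing between pools, with the HFD higher at 2, 4 and 24 weeks and the ND higher at 8 and 20 weeks, while Gsta3 stays between 11.62 and 12.90.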

How the data were processed

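The arrays were Illumina MouseWG-6 v2 BeadChips, hybridised with RNA of liver, EAT or MAT. For EAT and MAT the authors deposited probe intensity values on a linear scale, without normalization, with a detection p-value for each probe (BeadStudio 3.1.3 and R 2.4.1 in the submitters' processing notes). Liver values are log2 values after quantile normalization, as the authors deposited them in a table that also holds both fat depots. How liver RNA was pooled is not given in the sources used here.

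EAT and MAT intensities were quantile normalized within the depot and log2 transformed in R 4.3.3, and differed from the deposited log2 values by at most 0.000715 and 0.00112. No probe was filtered. HFD was compared with ND by limma 3.58.1, using lmFit and eBayes, with 1 fit for all groups of liver and 1 for EAT, with contrasts for each week, for the mean of the 8 liver weeks, an F-test of the interaction and an F-test of the ND course, and for MAT with the week as a term. P-values were adjusted by Benjamini-Hochberg over all 45281 probes and a call needs an adjusted p under 0.05. The fits were tested on simulated data. The number of arrays limits the precision.

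Probes were named from the platform annotation, with 1 symbol for 34885 probes, several for 18 and none for 10378. Values by sample are given for the probes the results turn on, and the other probes by range or count. The probe with the highest mean in a tissue speaks for its gene where genes are counted once, and list genes are examples among those that passed. The members and lists were chosen with earlier results of these data known. For the 24-week HFD samples the titles and the descriptions number the replicates differently, and the descriptions were used.

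The alternatives were the replicate number as a block, an intensity trend in eBayes, filters on low values, each week alone, a further threshold of 1 on the absolute log2 difference, a t-test, median scaling, normexp with an offset of 16 (neqc), the deposited values, and leaving out each array or replicate number. Leaving out the HFD 16-week replicate 1 and the ND 24-week replicate 1 was chosen after seeing the data.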

Additional observations from a re-analysis of the deposited data

Results flagged for a closer look

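In liver the diet difference varied with the week by the diet-by-week interaction for 9 member probes. The limma adjusted p was 0.0154 for Gsta1 ILMN_1231997, 0.00318 for Gsta1 ILMN_2657636, 0.00131 for Gsta2, 0.0453 for Gsta3 ILMN_3138685, 0.0358 for Gstm1 ILMN_1228233 and 0.0304 for Gstm3. For the 3 Gstm2 probes it was 3.82e-08 (ILMN_1251449), 3.47e-08 (ILMN_2624854) and 6.84e-07 (ILMN_2862470).

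In EAT the interaction passed for 8 member probes. The limma adjusted p was 0.0278 for Gsta1 ILMN_2657636, 5.31e-06 and 0.0028 for Gsta3 ILMN_1241437 and ILMN_3138685, 0.0101 for Gsta4 and 0.031 for Gstm1 ILMN_1228233. It was 0.00755 and 0.000532 for Gstm2 ILMN_1251449 and ILMN_2624854, and 0.0419 for Gstt2 ILMN_2554549. That Gsta1 probe was not well above background on most EAT arrays.

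Some members had all HFD arrays on one side of all ND arrays in liver and on the other side in EAT. At 2, 4, 8, 20 and 24 weeks 2, 1, 1, 2 and 2 of the 19 probes did so, against 4.37%, 1.00%, 1.60%, 2.82% and 2.25% of all probes, and those detected on at least 3 EAT arrays are given. The HFD less ND difference of Gsta4 was 0.61 in liver (limma adjusted p = 0.0909) and -0.69 in EAT at 2 weeks, where the array backgrounds differed, 0.96 and -0.40 (adjusted p = 0.546) at 8 weeks, 0.84 and -1.26 at 20 weeks, and 0.81 and -1.33 at 24 weeks. Gstm2 ILMN_2624854 at 4 weeks was at -0.68 in liver and 0.18 in EAT (adjusted p = 0.372), and Gstm2 ILMN_2862470 at 24 weeks at 0.32 (adjusted p = 0.252) and -0.48. The difference between the tissues was not tested, since their tables were normalized separately.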

How the results depend on the processing

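Counts are of the 19 member probes. Except where it is printed, the share of all probes under a setting is not given, and such a count shows only how the calls move. With a further threshold of 1 on the absolute log2 difference, 2, 2, 5, 4 and 5 were called in liver at 2, 4, 6, 16 and 20 weeks, and 0 and 2 in EAT at 2 and 24 weeks. With a t-test after Benjamini-Hochberg, liver calls were 0, 0, 3, 1, 0, 0, 0 and 0 at the 8 weeks in order, and EAT calls 0 at 20 and 2 at 24 weeks. Unadjusted, it called 8 and 11 in liver at 12 and 24 weeks, and 3, 7 and 7 in EAT at 4, 8 and 24 weeks. By limma without adjustment 9.19%, 9.61% and 21.7% of all EAT probes had a p under 0.05 at 4, 8 and 24 weeks. With each week fitted alone, 5 were called in liver at 16 weeks, and 3 and 5 in EAT at 8 and 24 weeks. With neqc, 1 was called in EAT at 8 weeks. Less the ND 20-to-24-week difference 1 was called in EAT at 2 weeks (5.09% of all probes), not called before, and of the probes called before Gstm1 ILMN_2626491 (0.10), Gstm2 ILMN_2862470 (0.17), Gstp1 ILMN_2677046 (0.60) and Gstt1 (0.24) changed sign. The cause was not tested. The EAT interaction kept 5 of its 8 calls without the 2-week arrays.

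Leaving out 1 array at a time gave liver counts of 4 to 6 at 2 weeks (4 without HFD replicate 3), 4 to 8 at 4 weeks (4 without HFD replicate 2), 7 to 8 at 6, 6 to 6 at 8, 5 to 5 at 12, 9 to 12 at 16, 9 to 10 at 20 and 6 to 6 at 24 weeks. In EAT the counts were 8 to 10 at 2 weeks, 0 to 0 at 4, 0 to 1 at 8, 2 to 5 at 20 (5 without ND replicate 1) and 7 to 11 at 24 weeks (7 without ND replicate 2). Leaving out a replicate number gave 7 to 8 for the liver mean, 16 to 19 for the ND course, 3 to 8 for the liver interaction (3 without number 3) and 2 to 6 for the EAT interaction (2 without number 3). In MAT the count was 0 to 0. Of 713 values of single probes under the other settings, 538 kept their direction and their side of the threshold, 170 no longer passed, 1 newly passed and 4 changed sign.

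With the replicate number as a block the counts were 7, 7, 9, 6, 5, 12, 9 and 6 at the liver weeks, 8 for the mean, 9 for the liver interaction and 19 for the ND course, and 13, 0, 0, 3 and 11 at the EAT weeks with 9 for the interaction, so that no count moved by over 1.5 times. Arrays of the same number did not consistently deviate together. The correlations were -0.283 to 0.183 over 24 liver pairs (median 0.029) and -0.325 to 0.313 over 15 EAT pairs (median -0.009). Of these, 1 liver pair and 4 EAT pairs were over 0.1, and the numbers were not taken to pair samples. Signal over background limits Gsta1, Gsta2 and Gstm3 in EAT, and 3 arrays for each diet limit every week.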
